A study of Mus musculus with 12 samples.

Results

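Arc and 9 immediate early transcription factor genes (Fos, Fosb, Junb, Egr1, Egr2, Egr3, Egr4, Npas4 and Nr4a1) were followed across 12 mouse hippocampal mRNA libraries. They were chosen by name from the gene column of the expected count table, so 10 of 22236 genes are described. All 10 passed the filter on low counts that left 15853 genes for testing. The 4 groups were male mice of the inbred strains C57BL/6J (hereafter B6) or DBA/2J (hereafter D2), aged 3 to 5 months at injection, that had received an adeno-associated virus in both hippocampi. The virus carried a short hairpin RNA against Hp1bp3 (AAV9-shRNA-Hp1bp3, KD) or a scrambled hairpin (AAV-scrmb-shRNA, Ctrl), with 3 mice in each strain and treatment. All mice therefore carried virus, and tissue was taken at least 6 weeks later. Virus was delivered to the dorsal hippocampus whereas RNA was prepared from the whole hippocampus, so each library mixes cells with and without the hairpin, and several cell types. Some mice of the study were behaviorally tested before tissue was taken, and which of the sequenced mice these were is not given in the sources used here.

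Immediate early genes are transcribed within minutes of synaptic activity, without new protein synthesis, when calcium and kinase signals reach factors such as CREB, SRF and MEF2 that already sit at their promoters. Most of their products are transcription factors that start a later wave of transcription. Arc is an exception, since its protein acts at the synapse, where it drives the removal of AMPA receptors, and its transcript is a standard label of recently active hippocampal neurons. In bulk tissue the level of each transcript sums over all cells, whether recently active or not. In bulk samples, fewer active cells and less RNA per active cell cannot be told apart.

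All of the genes are protein coding in GENCODE M21 (GRCm38). Arc lies at chr15:74669083-74672570 on the minus strand, Nr4a1 at chr15:101254269-101274795 (plus), Npas4 at chr19:4984355-4990316 (minus), Fos at chr12:85473890-85477273 (plus), Fosb at chr7:19302696-19310051 (minus) and Junb at chr8:84974484-84978718 (minus). Of the EGR genes, Egr2, Egr3 and Egr4 lie at chr10:67535475-67542188 (plus), chr14:70077203-70082614 (plus) and chr6:85511121-85513589 (minus). Junb alone overlaps another annotated gene, Prdx2 on the opposite strand, and whether reads were counted by strand is not given in the sources used here.

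Promoter windows from RefSeq (GRCm38.p6) were found for 7 of the 10 genes, and not for Arc, Egr1 and Egr3. The 250 bases before the start site are shown for Nr4a1 (chr15:101266596-101266845, plus strand) and Npas4 (chr19:4989972-4990221, minus strand), which were low in every B6 KD library, and for Fos (chr12:85473640-85473889, plus strand) and Fosb (chr7:19310046-19310295, minus strand), which were not. Capitals mark TGACG or its reverse complement CGTCA, the half-site of the cAMP response element to which CREB binds.
Nr4a1: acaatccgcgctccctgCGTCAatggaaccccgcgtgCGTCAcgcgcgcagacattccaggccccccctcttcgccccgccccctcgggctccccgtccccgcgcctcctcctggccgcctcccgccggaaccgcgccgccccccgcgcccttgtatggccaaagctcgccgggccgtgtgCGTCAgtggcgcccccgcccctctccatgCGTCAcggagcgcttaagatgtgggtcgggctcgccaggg
Npas4: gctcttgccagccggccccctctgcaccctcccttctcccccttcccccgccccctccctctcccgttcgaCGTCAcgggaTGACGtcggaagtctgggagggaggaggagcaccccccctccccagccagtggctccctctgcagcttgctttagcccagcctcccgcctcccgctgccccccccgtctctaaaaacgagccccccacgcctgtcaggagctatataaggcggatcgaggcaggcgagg
Fos: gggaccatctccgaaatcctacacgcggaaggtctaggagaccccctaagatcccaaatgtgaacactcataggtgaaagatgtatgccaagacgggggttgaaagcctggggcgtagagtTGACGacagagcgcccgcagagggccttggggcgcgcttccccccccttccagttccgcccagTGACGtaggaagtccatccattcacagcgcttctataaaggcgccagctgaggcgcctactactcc
Fosb: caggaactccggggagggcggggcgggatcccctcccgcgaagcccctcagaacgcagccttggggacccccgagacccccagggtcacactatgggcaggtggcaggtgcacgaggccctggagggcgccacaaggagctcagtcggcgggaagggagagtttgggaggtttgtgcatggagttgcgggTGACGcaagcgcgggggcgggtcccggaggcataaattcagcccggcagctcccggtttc
The half-site was present in all 7 windows, and in 17.8% of the 32851 promoter windows of the same length. Nr4a1 held 4, beginning 233, 213, 69 and 40 bases before the start site and all on the opposite strand, and 0.137% of windows held at least 4. Npas4 held 2 (179 and 169 bases before), Fos held 2 (129 and 66) and Fosb held 1 (60). The remaining windows held 2 (Egr2 and Egr4) or 1 (Junb), and 3.9% of all windows held at least 2. The shares were not adjusted for base composition. Egr2 was also the only one of the 7 with a CArG box, the element bound by SRF, which 1.47% of windows held. For Egr2 the window described (chr10:67537619-67537868, plus strand) was 1 of 5 listed, whereas the other genes had 1 each. Sequence more than 250 bases before the start sites was not searched for either element. The half-site was found in front of genes that were low and genes that were high in the library labelled B6 KD 3, described next. Its part in these levels was not tested.

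The smallest library held 18.2 M expected counts and the largest 39.4 M, and a single gene of the 10 had between 42 (Egr2, in B6 KD 2) and 6145 (Egr1, in B6 KD 3) expected counts. Hp1bp3, the targeted gene, had normalized counts of 9372, 8826 and 9348 in B6 Ctrl and of 5539, 5429 and 7633 in B6 KD. In D2 the counts were 6871, 6504 and 7002 in Ctrl and 5337, 4878 and 6941 in KD. B6 KD 3 therefore had the weakest reduction in B6, and the library labelled D2 KD 3 lay inside the D2 Ctrl range, against its label. The fitted log2 fold change of Hp1bp3 was -0.54 ± 0.15 in B6 and -0.25 ± 0.15 in D2 (edgeR adjusted p = 0.0760 and 1.0), so the targeted gene itself was not called in either strain. DESeq2 called it in B6 (adjusted p = 0.00825). Without B6 KD 3 it was called in B6 at -0.73 ± 0.13 (edgeR adjusted p = 0.0238), and without the library labelled D2 KD 3 it was at -0.43 ± 0.14 in D2 (edgeR adjusted p = 0.537). Main results that change without either library are given with and without it. Replicate numbers are names only. The mice of the treatments also differ in their number in the labels, which runs from 32 to 38 in B6 KD and 53 to 56 in B6 Ctrl, but from 41 to 57 in D2 KD and 30 to 40 in D2 Ctrl, so any order of handling and the treatment cannot be told apart within a strain. Markers of pyramidal and granule neurons were present in every library, with a summed level of 4680 to 6000 CPM (counts scaled to the library total) over 10 genes.

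Per kilobase of exon, Arc was the most abundant of the 10 genes in B6 Ctrl, at 46.6 to 61.8 CPM per kb over the 3 libraries. It was followed by Egr1 at 36.6 ± 3.79 CPM per kb (SD, n = 3), Junb at 28.7 ± 3.54 and Nr4a1 at 26.5 ± 5.90. Fos stood at 14.0 ± 3.11, Egr4 at 9.59 ± 1.44, Egr3 at 8.06 ± 0.512, Npas4 at 4.91 ± 0.989, Fosb at 3.49 ± 0.668 and Egr2 at 2.35 ± 0.659. In this order the libraries of Junb and Nr4a1, of Egr4 and Egr3, and of Npas4 and Fosb overlapped, and the other neighbours did not. By group mean, Arc, Egr1 and Junb led in this order, and Egr2 was last, in each of the 4 groups. By library, Arc was first in 10 of 12, the order of the leading 3 held in 5, and Egr2 was last in 11. Egr1 exceeded Arc in B6 KD 3 (34.5 against 26.8 CPM per kb) and in D2 Ctrl 2 (24.96 against 20.05), and outside B6 Ctrl the libraries of Arc and Egr1 overlapped within each group.

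The first comparison asked how the 10 transcripts differed after Hp1bp3 knockdown in B6. Arc, the orphan nuclear receptor gene Nr4a1 and Npas4, which encodes an activity-dependent factor of the bHLH-PAS family, were lower in all 3 B6 KD libraries than in all 3 B6 Ctrl libraries, to between 42.4% and 48.6% of the Ctrl mean. The other 7 genes were lower in B6 KD 1 and 2 but at or above Ctrl level in B6 KD 3. None of the 10 passed the adjusted threshold of 0.05 in edgeR, in a comparison where 2.64% of all genes did, while 3 of 10 had an unadjusted p under 0.05 (Arc, Nr4a1 and Npas4) against 20.6% of all genes.

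Arc had normalized counts of 4335, 5679 and 5215 in B6 Ctrl and of 2343, 1708 and 2411 in B6 KD. The groups did not overlap, and the 3 KD libraries were close to each other. The log2 fold change was -1.21 ± 0.30 (SE), with an adjusted p = 0.0556 in edgeR. Nr4a1 counts were 2507, 3510 and 2397 in B6 Ctrl and 1427, 1084 and 1152 in B6 KD, again without overlap. Its log2 fold change was -1.18 ± 0.28 (edgeR adjusted p = 0.0515). Npas4 counts were 603, 740 and 497 in B6 Ctrl and 281, 382 and 231 in B6 KD. They did not overlap either, although the fitted change was less precise, at -1.02 ± 0.44 (edgeR adjusted p = 0.218). Of all genes, 16.2% were lower in B6 KD without overlap, compared with these 3 of 10.

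Both Arc and Nr4a1 lay next to the threshold, and their call depended on the fit. They were called with DESeq2 (adjusted p = 0.00145 and 0.00121), which called 10.6% of all genes, with the newer quasi-likelihood method of edgeR (3.86% of all genes) and with the 6 B6 libraries alone (1.82% of all genes). Leaving out the library labelled D2 KD 3, which removes no B6 library but changes the shared estimate of spread, called them as well (4.6% of all genes). With limma-voom neither was called. For Arc alone, exchanging treatment within strains in an exact two-sided permutation test of the normalized counts gave a difference of -1203 averaged over strains (400 assignments, p = 0.115). Within B6 the difference was -2922, with an exact permutation p = 0.1, the smallest that 3 against 3 libraries allow.

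**Figure D1:**
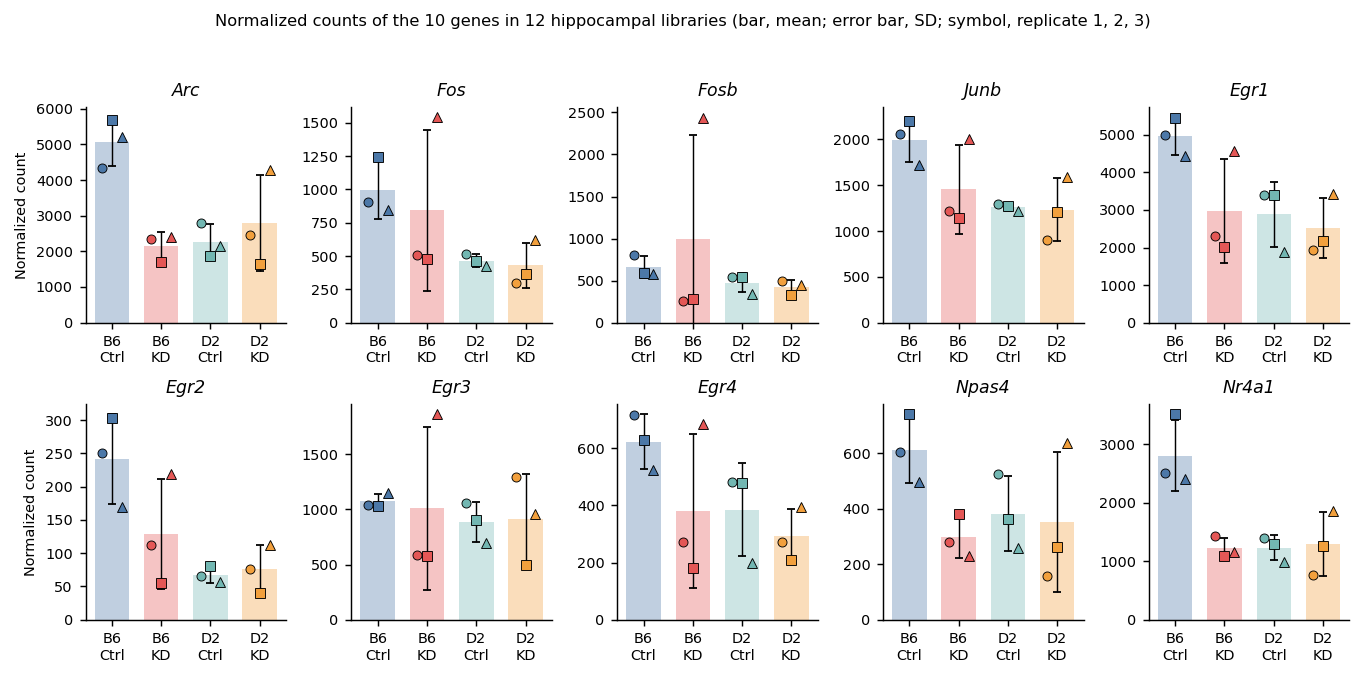
Normalized counts (y axis, from 0) of each gene in the 4 groups (x axis); bars are means, error bars SD (n = 3; the lower bar of Fosb in B6 KD is cut at 0) and the circle, square and triangle are replicates 1, 2 and 3. In B6 KD the 3 libraries of Arc and Nr4a1 sit together below B6 Ctrl, whereas the triangle (B6 KD 3) of Fosb stands at 2430 above all other libraries.

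The FOS and JUN genes encode subunits of the AP-1 transcription factor. Fosb had normalized counts of 809, 596 and 573 in B6 Ctrl and of 262, 279 and 2430 in B6 KD. B6 KD 1 and 2 were below every Ctrl library, and B6 KD 3 was 8.99 times the mean of these 2 and 3.69 times the Ctrl mean. Fos followed the same order, with 903, 1245 and 843 in B6 Ctrl and 511, 478 and 1541 in B6 KD. Junb had 2060, 2203 and 1724 in B6 Ctrl, and its 1217, 1137 and 2008 in B6 KD placed B6 KD 3 inside the Ctrl range. The fitted log2 fold changes were 0.63 ± 0.69 for Fosb, -0.21 ± 0.42 for Fos and -0.43 ± 0.23 for Junb (edgeR adjusted p = 0.652, 0.820 and 0.329). DESeq2 gave no p for Fosb, as it does where it finds an outlying count.

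The EGR genes encode zinc-finger factors of which Egr1 (Zif268) is needed for late phases of synaptic plasticity. Egr1 had normalized counts of 4989, 5455 and 4444 in B6 Ctrl and of 2315, 2021 and 4564 in B6 KD. Egr2 had 251, 304 and 170 in B6 Ctrl and 112, 54.97 and 218 in B6 KD. In both, B6 KD 3 reached the Ctrl range while the other B6 KD libraries were below it. Egr4 showed this arrangement as well, with 180.6 and 270.4 in B6 KD 2 and 1, 685.6 in B6 KD 3 and a Ctrl range of 523 to 715. Egr3 had 1037, 1032 and 1149 in B6 Ctrl and 588, 581 and 1863 in B6 KD, so B6 KD 3 exceeded all Ctrl libraries. Their fitted log2 fold changes ran from -0.87 ± 0.47 (Egr2) through -0.71 ± 0.33 (Egr1) and -0.68 ± 0.47 (Egr4) to -0.05 ± 0.45 (Egr3), with edgeR adjusted p-values of 0.323, 0.254, 0.443 and 0.966.

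Counted by library, 10 of 10 genes were below all B6 Ctrl libraries in B6 KD 1, where 34.3% of all genes were, and 10 of 10 in B6 KD 2, where 37.7% of all genes were. In B6 KD 3 only Arc, Npas4 and Nr4a1 were (3 of 10, against 40.4% of all genes), 4 were within the Ctrl range, and Fos, Fosb and Egr3 were above it (3 of 10, against 34.1%). Without B6 KD 3 all 10 log2 fold changes in B6 were negative, from -0.74 (Junb) to -1.50 (Egr2). In that fit Fosb was called at -1.27 ± 0.25 (edgeR adjusted p = 0.0268; 1 of 10 genes, against 4.36% of all genes), and 9 of 10 had an unadjusted p under 0.05, against 21.3% of all genes. Npas4 was the one that did not, at -0.87 ± 0.51. The library left out had the highest counts of Fos, Fosb and Egr3 among the 12 libraries. The median log2 fold change of the 10 genes with all libraries was -0.70, beside 0.00252 for all genes tested.

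**Figure D2:**
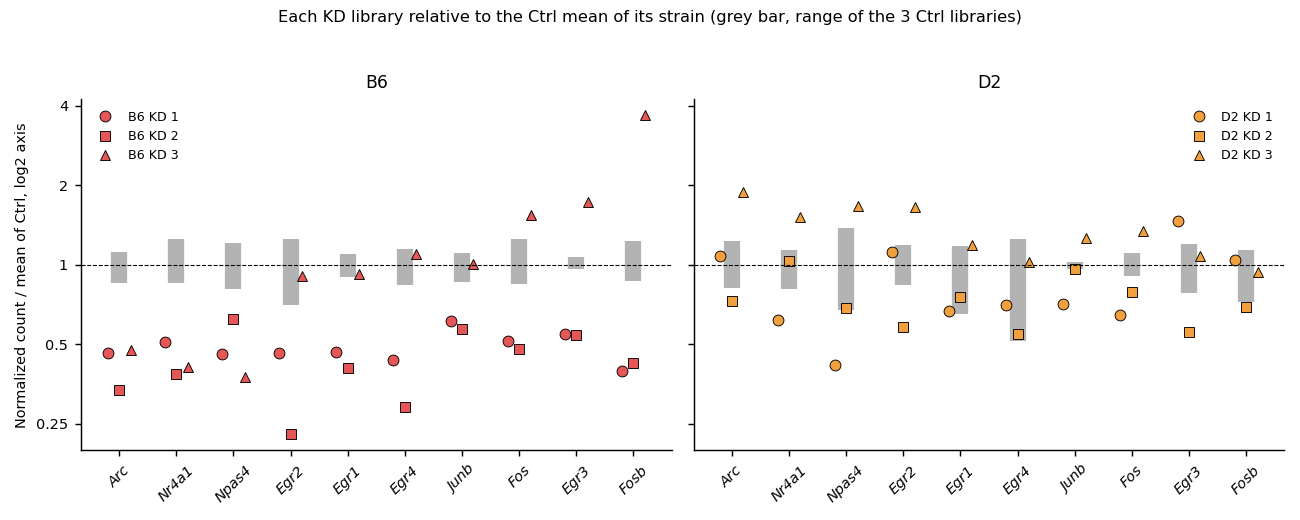
Normalized count of each KD library divided by the Ctrl mean of its strain (y axis, log2 scale) for the 10 genes (x axis), with B6 left and D2 right; symbols are KD replicates and grey bars the range of the 3 Ctrl libraries. In B6, the circles and squares lie under the grey bars for 10 of 10 genes, while the triangle leaves them for all but Arc, Nr4a1 and Npas4; in D2 the triangle is above the bars for 7 of 10 genes.

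Interferon response genes rose in B6 KD. The summed level of 9 interferon response genes was 68.1 to 83.2 CPM in B6 Ctrl and 410 to 1250 CPM in B6 KD, the lowest of these in B6 KD 3, and 9 of 9 were called higher, against 2.64% of all genes called in either direction. These calls, like every call for KD in B6, were lost in edgeR without B6 Ctrl 1, B6 Ctrl 3, B6 KD 1, B6 KD 2 or D2 Ctrl 1 and with the library total as a covariate, where no gene was called. Astrocyte markers (5 genes) summed to 1730 to 1810 CPM in B6 Ctrl and 2640 to 3830 in B6 KD, and microglia markers (7 genes) to 266 to 315 and 369 to 607. The sums of both did not overlap between the groups, while 1 of 5 astrocyte markers (Aqp4, 1.202 ± 0.19, edgeR adjusted p = 0.0326) and 0 of 7 microglia markers were called. Interneuron markers (6 genes, 708 to 798 and 588 to 919), oligodendrocyte markers (5 genes, 3710 to 5480 and 3830 to 4610) and endothelial markers (5 genes, 203 to 251 and 236 to 275) overlapped between the groups. Pyramidal and granule neuron markers also overlapped (5400 to 5960 and 4680 to 5840), as did markers of neocortex and thalamus (8 genes, 251 to 268 and 207 to 255). Markers of the choroid plexus (6 genes) varied from 78.4 to 2720 CPM in B6 Ctrl and from 143 to 5050 in B6 KD, where B6 KD 3 was highest. No marker was at 0 in all libraries, and the part of these cells in the lower early gene levels was not tested.

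The second comparison asked the same of D2. No gene of the 10 and no other gene was called (0.0% of all genes in edgeR, with 452 at an unadjusted p under 0.05, and 1 with DESeq2), and none of the 10 had an unadjusted p under 0.05. Arc had normalized counts of 2806, 1855 and 2159 in D2 Ctrl and of 2445, 1653 and 4272 in D2 KD. The highest was the library labelled D2 KD 3, and the other KD libraries spread over the Ctrl range and below it. Arc differed by 0.30 ± 0.30 on the log2 scale with all libraries and by -0.17 ± 0.23 without that one (edgeR adjusted p = 1.0 and 0.874), and the exact permutation p within D2 was 0.7 for a difference of 517 normalized counts. Nr4a1 had 1401, 1292 and 991 in D2 Ctrl and 758, 1267 and 1857 in D2 KD. Npas4 had 525, 363 and 259 in D2 Ctrl and 159, 262 and 638 in D2 KD. In both genes the KD libraries reached below and above the Ctrl range, with D2 KD 1 lowest and the library labelled D2 KD 3 highest.

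By library, 4 of 10 genes were below all D2 Ctrl libraries in D2 KD 1 (24.1% of all genes) and 6 of 10 in D2 KD 2 (24.6% of all genes). In the library labelled D2 KD 3, 7 of 10 were above all D2 Ctrl libraries (18.1% of all genes) and none was below. The log2 fold changes in D2 ran from -0.39 ± 0.47 (Egr4) to 0.30 (Arc), with a median of -0.07. Without the library labelled D2 KD 3 all 10 were negative, from -0.00212 (Egr3) to -0.87 ± 0.34 (Npas4), and the smallest edgeR adjusted p among them was 0.571. The interferon response genes summed to 77.5, 78.3 and 202 CPM in D2 Ctrl 1, 2 and 3. In D2 KD they summed to 98.4 to 456 CPM, lowest in the library labelled D2 KD 3. The part of these genes was not tested.

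**Figure D3:**
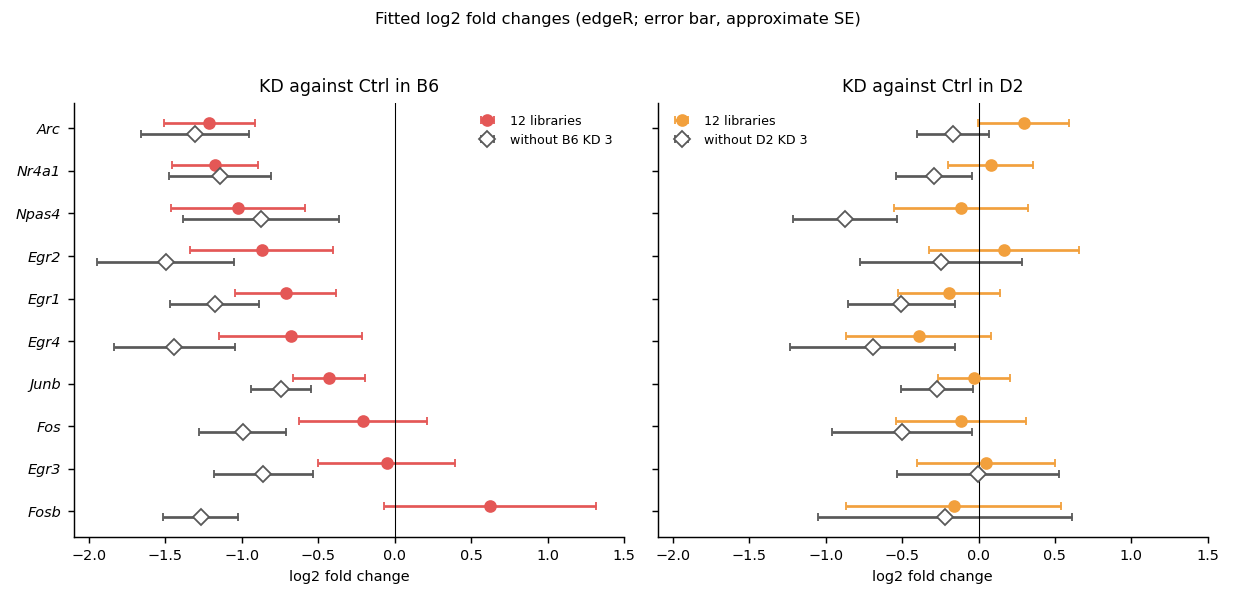
Log2 fold change of KD against Ctrl (x axis) for each gene (y axis) in B6 and D2, from fits with all 12 libraries (filled circles) and without the third KD library of that strain (open diamonds); error bars are approximate SE. Fosb in B6 moves from 0.63 to -1.27 when B6 KD 3 is left out, whereas Arc and Nr4a1 stay between -1.14 and -1.31.

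Averaged over strains, none of the 10 genes was called (0.0% of all genes in edgeR, 3046 at an unadjusted p under 0.05 and 1241 called with DESeq2), and Nr4a1 alone had an unadjusted p under 0.05 (-0.55 ± 0.20, edgeR adjusted p = 0.173). Arc was at -0.46 ± 0.21 and Npas4 at -0.57 ± 0.31 (edgeR adjusted p = 0.263 and 0.343). Without the library labelled D2 KD 3, 3 of 10 were called (5.61% of all genes), namely Arc at -0.70, Nr4a1 at -0.75 and Npas4 at -0.96 (edgeR adjusted p = 0.0364, 0.0375 and 0.0415). The exact permutation test of Arc then gave p = 0.035 for a difference of -1573. Among the permutation tests that left out a single library, only this one had p under 0.05. The library left out had the highest Arc count in D2. Without B6 KD 3 none of the 10 was called (2.1% of all genes), while 7 of 10 had an unadjusted p under 0.05, against 19.5% of all genes. Fosb then moved from 0.23 ± 0.49 to -0.72 ± 0.16 (edgeR adjusted p = 0.0527), and B6 KD 3 had the highest Fosb count.

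Whether the change differed between strains was tested by the strain by treatment interaction. No gene of the 10 passed (0.0% of all genes in edgeR, 937 at an unadjusted p under 0.05 and 11 called with DESeq2). Arc and Nr4a1 had the smallest p-values, with interactions of 1.51 ± 0.42 and 1.26 ± 0.39 on the log2 scale (unadjusted p = 0.00433 and 0.00892, edgeR adjusted p = 0.822 for both). Without B6 KD 3, 7 of 10 had an unadjusted p under 0.05, against 9.45% of all genes, and the interaction of Fosb turned from -0.79 to 1.11 ± 0.32 (edgeR adjusted p = 0.405). No gene of the 10 was called in that fit either, and the library it left out had the highest Fosb count. A difference between the strains in the response of these genes was thus not established across the genome.

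Strain was compared next, in Ctrl mice. All 10 genes had lower levels in D2 than in B6, and 8 of 10 did so without any overlap of libraries, against 17.8% of all genes. Egr2, Nr4a1 and Arc were called lower (3 of 10, against 14.0% of all genes). The calls changed with single libraries. None of the 10 was called without B6 Ctrl 2 or without D2 Ctrl 3, and 1 was called without D2 Ctrl 2 or with the library total as a covariate (Nr4a1 in both). Egr2 had normalized counts of 65.8, 80.5 and 56.6 in D2 Ctrl, a mean of 28.0% of B6 Ctrl, and differed by -1.84 ± 0.49 on the log2 scale (edgeR adjusted p = 0.0277). For Nr4a1 the change was -1.19 ± 0.28, and for Arc it was -1.16 ± 0.30 (edgeR adjusted p = 0.0147 and 0.0234). Fos was at 514, 459 and 423 in D2 Ctrl, below the 843 to 1245 of B6 Ctrl, and differed by -1.10 ± 0.43 without passing (edgeR adjusted p = 0.139). Egr3 and Npas4 were the 2 genes whose libraries overlapped. Hp1bp3 was lower in D2 Ctrl too (6792 ± 258 against 9182 ± 308, log2 fold change -0.43 ± 0.15, edgeR adjusted p = 0.0912). Astrocyte markers summed to 2430, 1820 and 4000 CPM in D2 Ctrl 1, 2 and 3, above the 1730 to 1810 of B6 Ctrl. D2 Ctrl 3 was also highest of its group for microglia markers (322, 251 and 416 CPM) and interferon response genes (77.5, 78.3 and 202 CPM). The part of these cells and genes was not tested. The reads of B6 and D2 mice were aligned to different, strain-specific genomes, and what that adds to a strain difference was not tested. These B6 Ctrl libraries are the same ones that B6 KD was compared with.

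In KD mice none of the 10 genes was called between the strains, where 15.0% of all genes were. Fos had the only unadjusted p under 0.05 (log2 fold change -1.002 ± 0.43, edgeR adjusted p = 0.161), and its change was -0.22 without B6 KD 3. None of the 10 had an unadjusted p under 0.05 with limma-voom or with the 6 KD libraries alone. The same held without B6 Ctrl 1, B6 Ctrl 3, D2 Ctrl 1, D2 Ctrl 2 or D2 KD 1. Nr4a1 (0.06 ± 0.28) and Arc (0.35 ± 0.30) were close to 0 in this comparison. Arc averaged 5076 ± 683 normalized counts in B6 Ctrl (SD, n = 3), while the 3 other groups had means between 2154 ± 388 (B6 KD) and 2790 ± 1343 (D2 KD).

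The 10 genes varied more between mice of one group than most genes. Their SD of log2(CPM + 1) within groups ran from 0.315 (Junb) to 0.918 (Fosb), beside a median of 0.170 over the 14179 tested genes that reached a mean of 1 CPM, of which 82.8% to 99.0% had smaller values. Without B6 KD 3 the SD of Fosb was 0.274. Over the 12 libraries the 45 pairs of genes had a median Pearson correlation of 0.711, from 0.0135 (Fosb with Npas4) to 0.957 (Egr1 with Egr4). Over deviations from the group means the median was 0.602, and 4 pairs were below 0, all between Fosb or Egr3 and Npas4 or Nr4a1. Without B6 KD 3 the median over the libraries was 0.809, with the lowest pair at 0.293, and the median over deviations was 0.533, with 5 pairs below 0. The points share libraries, so these values are descriptions.

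The genes whose levels were most like that of Arc over the 12 libraries were Morc2b, Tas1r3, Tob2, Vps33a, Haghl, Ndrg3, Pop5 and Amer3, with Pearson correlations of log2(CPM + 1) from 0.933 to 0.869. Over deviations from group means these ranged from 0.632 (Ndrg3) to 0.907 (Tas1r3). For the mean of the 10 standardized genes they were Thg1l, Usp36, Nsun5, Shf, Morc2b, Dnm1, Hp1bp3 and Mfn2, from 0.949 to 0.893. Hp1bp3, the targeted gene, had rank 7 of 14169 candidates, with 0.894 over the libraries and 0.837 over deviations from group means. These genes were picked as the highest of many and carry no test.

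**Figure D4:**
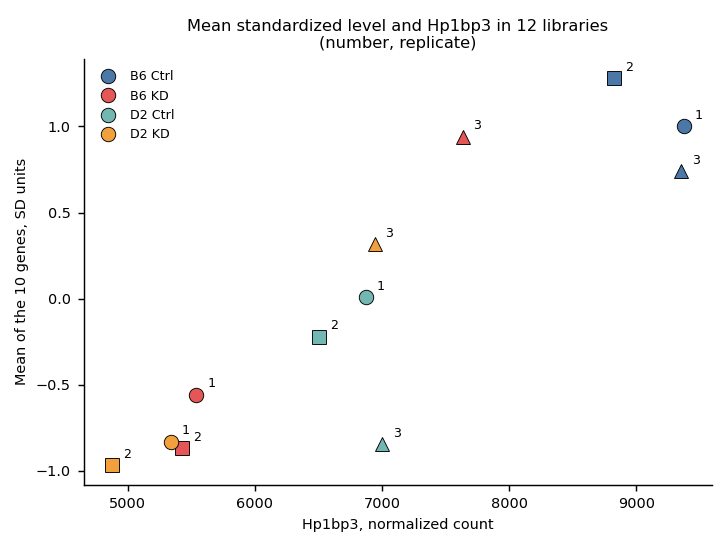
Mean of the 10 genes, each standardized over the 12 libraries (y axis, SD units), against the normalized count of Hp1bp3 (x axis); colors are groups and numbers replicates. The libraries B6 KD 3 (0.941) and D2 KD 3 (0.316) have both the highest mean and the highest Hp1bp3 count of their KD group, and D2 Ctrl 3 (-0.843) is low on the y axis at a Hp1bp3 count of 7002.

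Of 22 further activity- and stress-induced genes on a list, 1 was called lower in B6 and none higher, against 2.64% of all genes, and the median log2 fold change was 0.06. By library, 15 of the 22 were below all B6 Ctrl libraries in B6 KD 1 and 12 in B6 KD 2, against 34.3% and 37.7% of all genes. In B6 KD 3, 6 were below and 13 above, against 40.4% and 34.1% of all genes. Per1, a clock gene that is also induced by CREB, was the called one at -0.74 ± 0.16 (edgeR adjusted p = 0.0453), with 3620, 3280 and 3320 normalized counts in B6 Ctrl and 2330, 1770 and 1900 in B6 KD. Its groups did not overlap, but its call was lost in 9 of 21 alternatives, among them the fit without each of the 6 B6 libraries in turn. Sik1, a kinase that restrains CREB coactivators, was at -0.78 ± 0.26, the nuclear receptor gene Nr4a2 at -0.89 ± 0.34 and the stress factor gene Atf3 at 1.31 ± 0.50 (edgeR adjusted p = 0.119, 0.173 and 0.173). Between strains, Fosl1, which encodes a further AP-1 subunit, had 131 to 136 normalized counts in B6 Ctrl and 0 to 1.88 in D2 Ctrl. It was called lower in D2, as were Nr4a3 (-2.17 ± 0.45), Dusp5 (-2.11 ± 0.27) and Dusp1 (-1.17 ± 0.34), with edgeR adjusted p = 0.000113, 0.00694, 0.000248 and 0.0430 (4 of 22, against 14.0% of all genes). The call of Dusp1 was lost in 11 of 21 alternatives, and the other 3 were called in each. What the alignment to different strain genomes adds to these strain differences, and to those of the lists that follow, was not tested.

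Among 22 measured regulators of early gene transcription, 1 was called in B6, against 2.64% of all genes. Elk3, a partner of SRF, was higher by 0.79 ± 0.16 (edgeR adjusted p = 0.0391), a call lost in 10 of 21 alternatives. The CREB coactivator gene Crtc1 (-0.47 ± 0.12), Camk2a (-0.45 ± 0.12) and Mapk3 (-0.53 ± 0.15), which encode kinases of the calcium and ERK pathways, did not pass (edgeR adjusted p = 0.0618, 0.0727 and 0.0865). The list had 18 of 22 log2 fold changes below 0, against 49.4% of all genes, and a median of -0.18. For KD in D2 it had 17 of 22 below 0, against 48.7% of all genes, and a median of -0.19. Between strains in Ctrl, 5 of 22 were called, against 14.0% of all genes, and these were lower in D2. They were Rps6ka3 (-2.12 ± 0.28), Mef2d (-1.69 ± 0.14), Mef2a (-1.61 ± 0.33), Elk4 (-1.20 ± 0.30) and Crtc2 (-0.39 ± 0.09). In this order the edgeR adjusted p-values were 0.000332, 8.78e-06, 0.00627, 0.0193 and 0.0122. The call of Elk4 was lost in 4 of 21 alternatives and that of Crtc2 in 1, while the others were called in each.

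Of 10 synaptic genes associated with Arc or EGR proteins, none was called in B6 in edgeR. The smallest p-values were those of Dlg4, which encodes the postsynaptic scaffold PSD-95 (-0.30 ± 0.09), and Dnm2, a dynamin of endocytosis (0.27 ± 0.09). They were followed by Cacng2, which encodes the auxiliary AMPA receptor subunit stargazin (-0.54 ± 0.20), and Camk2b (-0.27 ± 0.18). In this order the edgeR adjusted p-values were 0.108, 0.127, 0.158 and 0.428. The median of the list was -0.13. Between strains in Ctrl, 2 of 10 were called, both lower in D2, against 14.0% of all genes. These were Cacng2 (-1.06 ± 0.20) and Grip1, which encodes a scaffold of AMPA receptors (-0.70 ± 0.16), with edgeR adjusted p = 0.00393 and 0.0139. The call of Grip1 was lost in 4 of 21 alternatives, and that of Cacng2 in none. For KD in D2 no gene of the 3 lists was called.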

How the data were processed

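Hippocampal mRNA was sequenced from 12 mice (KAPA mRNA Hyper Prep libraries, Illumina HiSeq 2500). The authors aligned reads to the genome of the mouse's own strain and estimated expression with RSEM 1.2.12 and Bowtie2 2.2.0. Submitters' processing notes name GRCm38. Per the labels a barcode clash led to a repeat run, and the runs were joined where both existed. The deposited expected counts are RSEM estimates that are not normalized. A deposited signal per gene is the authors' DESeq2 normalized count, the expected count over the size factor of the library. Size factors were inferred for each library as 1 over its smallest positive normalized count, which takes that value as 1 read. With these inferred factors, 100% of 266808 values came out as whole reads (tolerance 0.01).

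Expected counts were rounded to whole numbers. Genes were filtered with filterByExpr, and edgeR 4.0.16 (R 4.3.3) was used for TMM normalization and quasi-likelihood tests, with robust estimation, a mean for each of the 4 groups and 1 shared estimate of spread. The 6 comparisons were KD in each strain, KD averaged over strains, the interaction, and D2 against B6 in each treatment. Genes with a Benjamini-Hochberg adjusted p-value under 0.05 are termed called. The SE of a log2 fold change is approximate. CPM values were computed after TMM scaling, and CPM per kb was divided by the union of GENCODE M21 exons. Alternatives were DESeq2 1.42.0, limma-voom (limma 3.58.1), other settings of edgeR, the library total as a covariate and each library left out. An edgeR fit to the recovered whole reads was added after the data had been seen. It called 425 genes for KD in B6 where the main fit called 418. Fits were tested on simulated data. Replicate pairs differed beyond counting noise (chi-square per degree of freedom 23.4 to 110), so all 12 libraries were counted.

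The genes and lists were chosen with earlier results of these data known. Genes named in the text were the 10, Hp1bp3, up to 4 genes of each list with the smallest p for KD in B6, any of the early response, regulator and synaptic lists called for KD in B6 or between strains in Ctrl, and 8 per likeness ranking. Maff, Gadd45b and Klf10 were named after their values were seen. A spreadsheet had altered 27 gene symbols to dates, none of them one of the 10. Of the lists, Mrtfa and Ifi27 were not matched, and Mrtfb was matched as Mkl2. Small RNA libraries were not analysed here.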

Additional observations from a re-analysis of the deposited data

How the results depend on the processing

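There were 3 mice a group, and replicate pairs differed beyond counting noise. The parts of depth and of spread between mice in the limits of these results were not tested. Of the 1240 alternative values of the 60 log2 fold changes, 1153 kept their direction and their side of the threshold, 53 changed sign (1 of these also passed, Fosb for KD in B6 without B6 KD 3), and of the others 21 passed and 13 no longer passed. For KD in B6, where none of the 10 genes was called, DESeq2, the newer quasi-likelihood method and the 6 libraries alone called 2 each, and the fit without robust estimation and that with DESeq2 size factors called 1 each. Leaving out 1 library called 0 to 2, with Arc called without D2 KD 2 or 3, Nr4a1 without D2 Ctrl 3, D2 KD 1 or 3, and Fosb without B6 KD 3. Over all genes, calls for KD in B6 ranged from 0 (library total as a covariate) to 1688 (DESeq2), and from 0 to 729 when 1 library was left out, against 418. For KD averaged over strains, leaving out 1 library called 0 to 3. For D2 against B6 in Ctrl, with 3 called, the covariate gave 1, the 6 libraries alone 5, and leaving out 1 library 0 to 5: Arc was lost without B6 Ctrl 2 or 3 or D2 Ctrl 2 or 3, Egr2 without B6 Ctrl 1 or 2 or any D2 Ctrl library, and Nr4a1 without B6 Ctrl 2 or D2 Ctrl 3, while Fos and Junb were gained without B6 KD 3. For KD in D2, the interaction and D2 against B6 in KD, 0 of the 10 were called in each fit run. The permutation difference of Arc ran from -1573 to -918.7 when 1 library was left out, and p was under 0.05 only without D2 KD 3.

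Of the 53 sign changes, 52 gave values that were not called. With limma-voom, Fosb was at -0.0729 for KD in B6 and -0.116 averaged over strains, Egr3 at -0.0607 for KD in D2, and Nr4a1 at -0.0188 for D2 against B6 in KD. With the covariate, Egr3 was at -0.095 for KD in D2 and -0.017 for the interaction, Fosb at -0.058 averaged over strains and 0.00351 for D2 against B6 in Ctrl, and Fos at -0.0518 for the interaction. Leaving out 1 library gave ranges across 0. For KD in B6 these were -0.994 to 0.0548 (Fos), -1.27 to 1.08 (Fosb) and -0.859 to 0.224 (Egr3). For KD in D2 they were -0.168 to 0.557 (Arc), -0.498 to 0.0776 (Fos), -0.272 to 0.145 (Junb), -0.247 to 0.477 (Egr2), -0.296 to 0.34 (Egr3), -0.874 to 0.226 (Npas4) and -0.292 to 0.34 (Nr4a1). Averaged over strains they were -0.715 to 0.459 (Fosb) and -0.405 to 0.137 (Egr3). For the interaction they were -0.263 to 0.88 (Fos), -1.24 to 1.11 (Fosb), -0.215 to 0.908 (Egr3) and -0.0261 to 1.05 (Egr4). For D2 against B6 in KD they were -0.0815 to 0.643 (Arc), -1.72 to 0.628 (Fosb), -0.474 to 0.0527 (Junb), -0.538 to 0.201 (Egr1), -0.487 to 0.63 (Egr3), -0.723 to 0.354 (Egr4), -0.496 to 0.603 (Npas4) and -0.276 to 0.357 (Nr4a1). The cause was not tested. Another pseudocount kept 8 of 8 genes most like Arc and 7 of 8 most like the mean of the 10. No paired analysis was possible because each library came from a different mouse and the labels give no pairs.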

Other observations

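The ratio of Fosb to Arc (CPM) was 1.01 in B6 KD 3 and between 0.104 and 0.291 in the other 11 libraries. Fos to Nr4a1 was 1.34 in B6 KD 3 and between 0.289 and 0.441 elsewhere. Egr3 to Nr4a1 was 1.62 in B6 KD 3 and also high in D2 KD 1, at 1.71, against 0.294 to 0.755 in the remaining 10 libraries. In D2 KD 1, Egr3 had 1298 normalized counts, above the 693 to 1058 of D2 Ctrl, while Nr4a1, Npas4, Fos and Junb were below all D2 Ctrl libraries.

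Several stress- and activity-induced genes outside the 10 were highest in B6 KD 3, and they were picked after their values were seen. Maff had 337 normalized counts there and 36.7 to 60.2 in the other libraries, Gadd45b had 1080 against 207 to 427, and Klf10 had 2540 there and 2240 in D2 KD 1. Dusp1, a phosphatase gene, had 301 in B6 KD 3, under the 504 and 532 of the other B6 KD libraries and the 641 to 1100 of B6 Ctrl.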
